A study of Homo sapiens with 6 samples.

Results

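The genes described here encode the translation initiation and elongation factors, with the poly(A)-binding protein gene PABPC1 and the translationally controlled gene TPT1. They were chosen by symbol from a table of 61517 gene rows: symbols that begin with EIF1 to EIF6, EEF1 or EEF2, together with PABPC1 and TPT1, at a mean level of at least 1 CPM, the count scaled to each library's total. The symbol prefixes, PABPC1 and TPT1 matched 207 rows, of which 141 were pseudogenes, 4 were antisense or divergent transcripts and 3 lay under 1 CPM, which left 59 genes. The genes of the kinases that phosphorylate eIF2 or eEF2, and of the lysine methyltransferases of eEF1A and eEF2, do not belong to the group and are described apart. Just inside the minimum lay EEF1A2, EIF5AL1 and EIF4E3, at means of 1.00, 1.44 and 1.89 CPM, and just outside it EIF2S3B, EEF1E1-BLOC1S5 and EIF4E1B, at 0.278, 0.188 and 0.0136 CPM. The study measured poly(A)-selected RNA from the human monocytic leukaemia line THP-1, taken to macrophages and then given lipopolysaccharide (LPS) and ATP, with which the submitters set off pyroptosis, a lytic inflammatory cell death. The ruxolitinib group, titled RUX+, had 3 libraries from cells that also received the drug, an inhibitor of the kinases JAK1 and JAK2, which the treatment field spells Lukotinib. The control group, titled RUX-, had 3 libraries with treatment none. All 6 libraries therefore come from 1 cell line and from stimulated cells, and no unstimulated cells were analysed here. The sources used here do not state the dose, the times or how the cells were differentiated.

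Translation starts when eIF4F (the cap-binding eIF4E, the scaffold eIF4G and the helicase eIF4A) draws the small ribosomal subunit, loaded with eIF3 and with the initiator tRNA that eIF2 carries, to the capped end of an mRNA. eIF1, eIF1A and eIF5 set the choice of start codon, eIF5B joins the large subunit, and eEF1 and eEF2 then deliver aminoacyl-tRNA and move the ribosome along. Many of the elongation factors, a few initiation factors, PABPC1, TPT1 and the ribosomal proteins are made from 5′ TOP mRNAs, which begin with a C followed by an unbroken run of C and T (U in the RNA), and whose translation is controlled through mTORC1 and LARP1. In macrophages, interferon signalling through JAK kinases raises other parts of the translation machinery, among them PKR, the double-stranded RNA-activated eIF2 kinase encoded by EIF2AK2.

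The starts of 5 documented TOP mRNAs and of 1 factor that lacks such a start are shown because the members are divided by this feature further on. Each line gives 10 bases before and 20 bases from the annotated transcript start on, 5′ to 3′ on the strand of the gene, with the leading C and the unbroken run of C and T after it in capitals where that run has at least 4 bases. The sequences are RefSeq's, on GRCh38.p14, and EEF1B2 is shown at the one of its annotated starts that has the run.
EEF1A1: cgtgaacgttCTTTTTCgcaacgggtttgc
EEF2: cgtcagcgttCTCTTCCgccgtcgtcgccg
EEF1B2: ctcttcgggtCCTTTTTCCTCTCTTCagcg
TPT1: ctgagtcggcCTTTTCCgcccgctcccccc
EIF4B: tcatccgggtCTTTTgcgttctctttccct
EIF4E: tggagcggttgtgcgatcagatcgatctaa
They lie in the order EEF1A1 at chr6:73521013-73521042 (minus strand), EEF2 at chr19:3985444-3985473 (minus strand), EEF1B2 at chr2:206159885-206159914 (plus strand), TPT1 at chr13:45341164-45341193 (minus strand), EIF4B at chr12:53006446-53006475 (plus strand) and EIF4E at chr4:98929114-98929143 (minus strand). The starts of 48 of the 59 genes were used here, and 13 of these (27.1%) had such a run at an annotated start, searched on the strand of the gene and at the start alone. The share was 4.07% of all 35116 starts in the table and 5.14% of its 27305 gene symbols. A match describes the annotated start and not the start used in these cells. Outside the documented TOP mRNAs the run was present in EIF2A, EIF2D, EIF2S3, EIF3D, EIF3K, EIF3M and EIF4A2, and EEF1G, a documented TOP mRNA, had none at its entry. A pair of them is shown for the contrast in their values.
EIF3M: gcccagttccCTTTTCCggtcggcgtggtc
EIF2S3: gatttccttcCTCTTTTggcaacatggcgg
These lie at chr11:32583821-32583850 (plus strand) for EIF3M and at chrX:24054946-24054975 (plus strand) for EIF2S3.

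Library totals were 18796476 to 19253534 counts with ruxolitinib and 17757595 to 24533979 in control, so that 3 counts, the upper limit for a gene with 0 reads by counting error alone, correspond to 0.122 to 0.169 CPM. Within a group, log2 CPM correlated over genes at 0.988 to 0.991, and between groups at 0.972 to 0.976. Of 10 macrophage and monocyte markers all were detected, 1 rose and 9 fell, and their summed level was 667 to 714 CPM with ruxolitinib and 1212 to 1244 CPM in control. The summed level of 5 interferon-response genes, a check of the drug label, was 12.6 to 14.3 CPM with ruxolitinib and 966 to 1009 CPM in control, and all 5 fell. Markers of other cells summed to 4.56 to 5.91 CPM with ruxolitinib and 5.60 to 6.38 CPM in control for T cells, with CD3D, CD3E and CD3G at 0, and to under that for B, erythroid, epithelial and fibroblast cells. The part of the lower macrophage markers in the results that follow was not tested.

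More translation factor genes rose than fell with ruxolitinib, and among the genes that rose EIF4B, EIF3L, TPT1, EEF1G, EEF2 and EEF1A1 had the largest log2 fold changes. Of the 59 genes, all of which were tested, 25 (42.4%) rose, 2 (3.39%) fell and 32 did not pass edgeR's quasi-likelihood test at an adjusted p under 0.05. Over all 14051 genes tested, 29.7% passed, 13.6% higher and 16.1% lower with ruxolitinib. The median log2 fold change (ruxolitinib over control, here and throughout) was 0.14 for the 59 genes and -0.01 for all genes tested, and it was positive for 42 of the 59. Values after ± are SE beside a log2 fold change and SD beside CPM, with n = 3 libraries per group throughout. In such bulk libraries a change in the share of cells that express a gene and a change in RNA per cell cannot be told apart. Changes were moderate: 9 genes had a log2 fold change of at least 0.4, and the largest was 0.72, for EIF4B. Among the 9 was EIF5AL1, which did not pass (adjusted p = 0.286). The groups of 3 libraries did not overlap in CPM for 35 genes (59.3%), 31 higher and 4 lower, and for 44.2% of all genes tested. Of the 10 members with the highest mean CPM, 8 rose and 0 fell. The shares over all genes are not limited to genes of that level, and none was computed for such genes. The libraries carry batch numbers 1 to 3, each shared by a ruxolitinib and a control library: with the batch as a block 16 members rose and 1 fell, against 20.7% of all genes called, and without the batch 1 libraries 12 rose and 0 fell, where 13.8% of all genes passed, 5.85% higher and 7.96% lower. Within each batch the ruxolitinib library was the higher one for 24 of the 25 genes that rose and the lower one for both genes that fell. This order follows from groups that do not overlap, as held for 26 of the 27 genes called, so it is no separate support. For EIF2S2, whose groups overlapped, the order was reversed in batch 3.

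**Figure D1:**
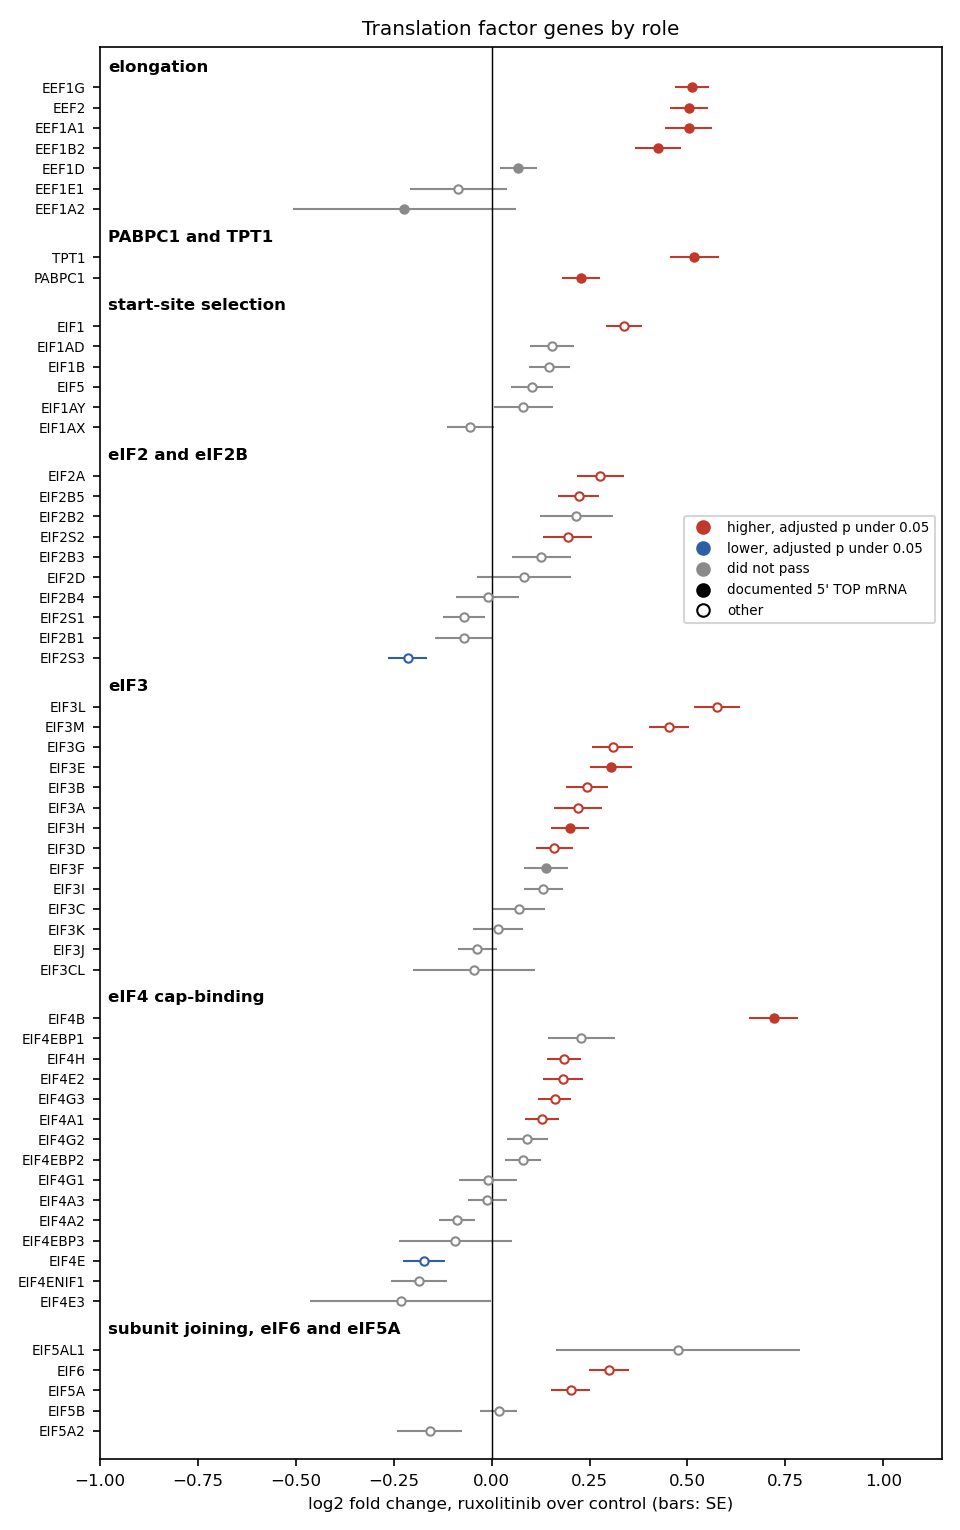
Log2 fold change of ruxolitinib over control (horizontal axis, bars are SE, n = 3 libraries per group) for the 59 genes, grouped by role and ordered by value within a role. Red marks the 25 genes that rose, blue the 2 that fell and grey the 32 that did not pass, and filled points are documented 5′ TOP mRNAs; EIF4B has the largest value, 0.72.

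Among the elongation factor genes EEF1A1, EEF1B2, EEF1G and EEF2 were higher with ruxolitinib: of 7 genes 4 rose, 0 fell and 3 did not pass, with a median log2 fold change of 0.42. EEF1A1 (chromosome 6, 73515750 to 73523797 on GRCh38, GENCODE 29, as are all gene positions here), which carries aminoacyl-tRNA to the ribosome, had 8474, 9206 and 7887 CPM in ruxolitinib replicates 1 to 3 and 6139, 5733 and 6173 CPM in control replicates 1 to 3. All 3 ruxolitinib libraries lay above all 3 control libraries, with log2 fold change 0.50 ± 0.06, adjusted p = 5.64e-05. EEF2 (chromosome 19, 3976056 to 3985469), the translocase that moves the ribosome by 1 codon, had 797, 764 and 779.9 CPM in ruxolitinib replicates 1 to 3 and 523, 580.0 and 547 CPM in control replicates 1 to 3. Its groups were also apart, with log2 fold change 0.50 ± 0.05, adjusted p = 9.50e-06. EEF1G (chromosome 11, 62559601 to 62574086), a structural subunit of the eEF1 exchange complex, had 681, 681 and 672 CPM with ruxolitinib, against 478, 457 and 491 CPM in control. Its 3 ruxolitinib libraries were nearly level with each other and lay above every control library (log2 fold change 0.51 ± 0.04, adjusted p = 3.63e-06). EEF1B2, the exchange subunit that recharges eEF1A with GTP, averaged 215 ± 14.1 CPM with ruxolitinib and 160.2 ± 9.21 CPM in control, with log2 fold change 0.42 ± 0.06, adjusted p = 1.92e-04. The third eEF1 exchange subunit gene, EEF1D, was at 0.07 ± 0.05 on the log2 scale (adjusted p = 0.312), so that the subunits of this complex had unequal values. EEF1E1, which encodes a scaffold protein of the tRNA synthetase complex, had -0.08 ± 0.12, and EEF1A2, the isoform of muscle and neurons, which averaged 0.922 ± 0.195 CPM with ruxolitinib and 1.079 ± 0.108 CPM in control, had -0.22 ± 0.28. All 4 calls held with the batch as a block and without any single library. A readthrough gene, AP002990.1, covers 99.9% of the exon bases of EEF1G, so their reads cannot be separated; it held 0.825 CPM. The 39 pseudogene rows of EEF1A1 together held 0.614 to 0.678% of the count of EEF1A1 in each library.

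TPT1 and PABPC1, both documented TOP mRNAs, rose. TPT1 (chromosome 13, 45333471 to 45341370), a calcium- and tubulin-binding protein named for the control of its translation, had 4008, 4373 and 3718 CPM in ruxolitinib replicates 1 to 3 and 2858, 2666 and 2926 CPM in control replicates 1 to 3. The groups did not overlap, with log2 fold change 0.52 ± 0.06, adjusted p = 6.52e-05. PABPC1 (chromosome 8, 100685816 to 100722809), which binds the poly(A) tail and through eIF4G joins both ends of the mRNA, had 853, 842 and 813 CPM in ruxolitinib replicates 1 to 3 and 721, 673 and 746 CPM in control replicates 1 to 3. The difference was smaller than for TPT1, with log2 fold change 0.23 ± 0.05, adjusted p = 0.00395, and the groups did not overlap. Without the batch 1 libraries the adjusted p of PABPC1 was 0.127. PABPC4, an inducible cytoplasmic poly(A)-binding protein, averaged 635 ± 31.8 CPM with ruxolitinib and 413 ± 13.4 CPM in control, with log2 fold change 0.62 ± 0.05, adjusted p = 1.95e-06.

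**Figure D2:**
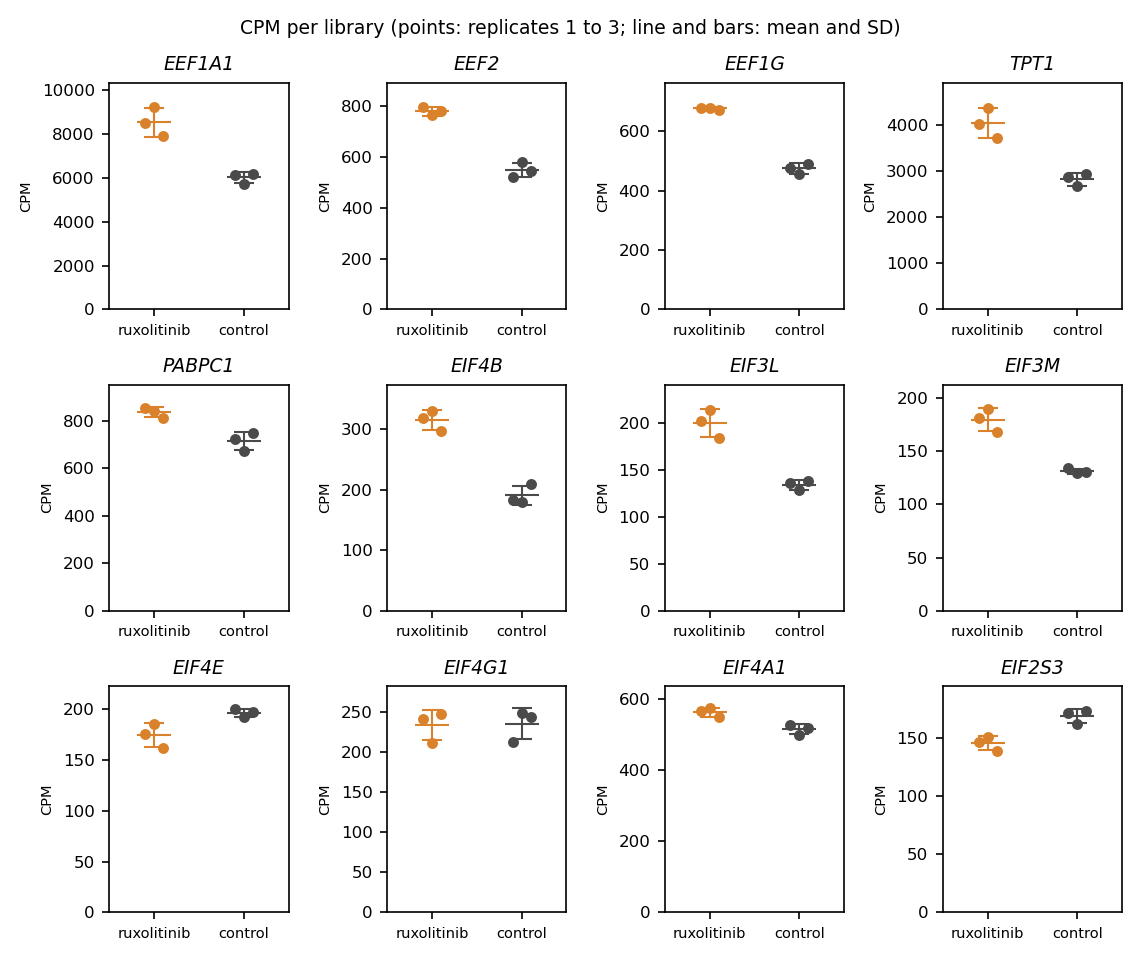
CPM over scaled library totals (vertical axes, from 0) in the 3 ruxolitinib and 3 control libraries for 12 genes; points are libraries and bars are mean and SD. The groups overlap only for EIF4G1; EIF4E and EIF2S3 are lower with ruxolitinib and the other 9 genes are higher.

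Of 6 genes for start-site selection 1 rose, EIF1, 0 fell and 5 did not pass, with a median log2 fold change of 0.13. EIF1 (chromosome 17, 41688885 to 41692668), which guards against initiation at the wrong codon, had 672, 701 and 647 CPM in ruxolitinib replicates 1 to 3 and 538, 520.0 and 541 CPM in control replicates 1 to 3. All ruxolitinib libraries were above all control libraries (log2 fold change 0.34 ± 0.05, adjusted p = 1.54e-04). Its paralogue EIF1B (chromosome 3, 40309684 to 40312424) had 80.6, 82.2 and 83.9 CPM with ruxolitinib, against 78.4, 71.1 and 73.5 CPM in control, and EIF1AD (chromosome 11, 65996545 to 66002176), whose protein has an eIF1A-like domain, had 58.8, 55.8 and 53.0 CPM with ruxolitinib, against 50.6, 49.2 and 51.0 CPM in control. Neither pair of groups overlapped, and the adjusted p was 0.0519 for EIF1B and 0.0602 for EIF1AD, at log2 fold changes of 0.15 ± 0.05 and 0.15 ± 0.06. With upper-quartile scaling both passed, at adjusted p = 0.0214 for EIF1B and 0.0264 for EIF1AD, and without ruxolitinib replicate 3 EIF1AD passed at 0.0353 and EIF5 at 0.0444. EIF5, the GTPase activator of eIF2, averaged 753 ± 47.8 CPM with ruxolitinib and 700.4 ± 23.6 CPM in control (log2 fold change 0.10 ± 0.05), and EIF1AX, the scanning factor eIF1A, had -0.05 ± 0.06 and its homologue EIF1AY 0.08 ± 0.08.

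The genes of eIF2, which carries the initiator tRNA, and of its exchange factor eIF2B did not move together: of 10 genes 3 rose, 1 fell and 6 did not pass, with a median log2 fold change of 0.10. EIF2S3 (chromosome X, 24054716 to 24077971), the GTP-binding gamma subunit of eIF2, had 147, 151 and 139 CPM in ruxolitinib replicates 1 to 3 and 172, 162 and 174 CPM in control replicates 1 to 3. Its ruxolitinib libraries all lay below its control libraries, with log2 fold change -0.21 ± 0.05, adjusted p = 0.00635, or 0.0429 with the batch as a block. The call of EIF2S3 was lost without control replicate 1 (adjusted p = 0.0544), without control replicate 3 (0.0619) and without the libraries of batch 1 (0.131) or batch 3 (0.0859). EIF2S1 (chromosome 14, 67359997 to 67386516), the alpha subunit whose phosphorylation halts initiation, had 113, 119 and 108 CPM with ruxolitinib, against 116, 115 and 125 CPM in control. These ranges overlapped (log2 fold change -0.07 ± 0.05, adjusted p = 0.361). The third subunit gene, EIF2S2, averaged 380.1 ± 29.3 CPM with ruxolitinib and 332 ± 19.5 CPM in control, with log2 fold change 0.19 ± 0.06, adjusted p = 0.036. Its groups overlapped, and its call was lost with the batch as a block (adjusted p = 0.117) and without ruxolitinib replicate 1 (0.123), ruxolitinib replicate 2 (0.102), control replicate 1 (0.0956) or control replicate 2 (0.0969). EIF2A (chromosome 3, 150546678 to 150584242), a single-chain factor for initiation outside the eIF2 route, had 103, 108 and 92.5 CPM with ruxolitinib, against 85.3, 80.9 and 84.4 CPM in control, without overlap (log2 fold change 0.28 ± 0.06, adjusted p = 0.0044). EIF2B5 (chromosome 3, 184135038 to 184146112), the catalytic epsilon subunit of eIF2B, had 83.5, 77.4 and 84.6 CPM with ruxolitinib, against 68.0, 70.9 and 71.6 CPM in control, also without overlap (log2 fold change 0.22 ± 0.05, adjusted p = 0.00755). Without the batch 1 libraries the adjusted p was 0.0812 for EIF2A and 0.187 for EIF2B5, and without those of batch 3 it was 0.0542 for EIF2B5. The other eIF2B subunit genes had log2 fold changes of 0.22 ± 0.09 for EIF2B2, 0.13 ± 0.08 for EIF2B3, -0.01 ± 0.08 for EIF2B4 and -0.07 ± 0.07 for EIF2B1, and EIF2D, which can bring the initiator tRNA without GTP, had 0.08 ± 0.12. On the opposite strand the exons of EIF2A share 3.70% of their bases with SERP1, which was expressed at 171 CPM, and a stated strand setting is lacking.

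Of 14 genes for eIF3, the largest initiation complex, 8 rose, 0 fell and 6 did not pass, with a median log2 fold change of 0.18. The largest value belonged to EIF3L (chromosome 22, 37848868 to 37889407), a subunit outside the functional core, with 202, 213 and 184 CPM in ruxolitinib replicates 1 to 3 and 136, 128 and 139 CPM in control replicates 1 to 3. Its groups were well apart, with log2 fold change 0.58 ± 0.06, adjusted p = 1.52e-05. EIF3M (chromosome 11, 32583798 to 32606262), a subunit with a PCI domain, had 181, 189 and 168 CPM in ruxolitinib replicates 1 to 3 and 134, 129 and 130.3 CPM in control replicates 1 to 3, again without overlap (log2 fold change 0.45 ± 0.05, adjusted p = 4.14e-05). EIF3G (chromosome 19, 10115017 to 10119918), an RNA-binding subunit that takes part in scanning, had 86.7, 93.7 and 95.7 CPM with ruxolitinib, against 73.6, 76.9 and 72.5 CPM in control. All 3 ruxolitinib values exceeded the control values (log2 fold change 0.31 ± 0.05, adjusted p = 9.80e-04). EIF3E averaged 306 ± 19.8 CPM with ruxolitinib and 248 ± 9.10 CPM in control and EIF3H 314 ± 16.9 CPM with ruxolitinib and 274 ± 7.59 CPM in control, with log2 fold changes of 0.30 ± 0.05 and 0.20 ± 0.05, while EIF3F, the third of the subunits documented as TOP mRNAs, had 0.14 ± 0.06 (adjusted p = 0.0811). EIF3A and EIF3B, the scaffolds of the complex, rose by 0.22 ± 0.06 and 0.24 ± 0.05 on the log2 scale, and EIF3D, which can bind the cap itself, by 0.16 ± 0.05. EIF3I had 0.13 ± 0.05 (adjusted p = 0.0694), EIF3K 0.02 ± 0.06 and EIF3J, a loosely bound subunit, -0.04 ± 0.05. EIF3C and EIF3CL are near-identical copies whose reads the counting could split, so they are given as a sum, 174.7 ± 6.05 CPM with ruxolitinib and 168.8 ± 7.64 CPM in control (SD, n = 3 each). With the batch as a block 5 of the 8 calls held, and the adjusted p was 0.0686 for EIF3A, 0.0575 for EIF3H and 0.103 for EIF3D. Leaving out single libraries also ended the call of EIF3A, at adjusted p = 0.0792 without ruxolitinib replicate 1, 0.0685 without ruxolitinib replicate 2 and 0.0831 without control replicate 1. For EIF3D the values were 0.0733 without ruxolitinib replicate 1, 0.0511 without ruxolitinib replicate 2, 0.0934 without control replicate 1 and 0.0971 without control replicate 2. Leaving out batch 1 ended the call of EIF3B as well (0.133). Within eIF3, then, log2 fold changes spanned -0.05 to 0.58, with EIF3CL at the low end. Without ruxolitinib replicate 2 EIF3CL had -0.26 (adjusted p = 0.0221). In ruxolitinib replicate 2 EIF3CL had 36.6 CPM, against 25.5 and 24.0 in replicates 1 and 3. EIF3C was lower in that library, at 131 CPM against 153 and 154. A change in EIF3CL and a shift of reads between the copies therefore cannot be told apart.

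The cap-binding factors had the widest span of values: of 15 genes for eIF4 and the 4E-binding proteins 5 rose, 1 fell and 9 did not pass, with a median log2 fold change of 0.08 and a span of -0.23 to 0.72. EIF4B (chromosome 12, 53006158 to 53042209), the RNA-binding cofactor that stimulates the eIF4A helicase, had 319, 329.7 and 297 CPM in ruxolitinib replicates 1 to 3 and 184, 181 and 209 CPM in control replicates 1 to 3. Every ruxolitinib library was far above every control library, with log2 fold change 0.72 ± 0.06, adjusted p = 5.86e-06, the largest value of the 59 genes. EIF4H (chromosome 7, 74174245 to 74197101), a smaller cofactor of the same helicase, had 402, 404 and 392.3 CPM with ruxolitinib, against 351, 343 and 361 CPM in control, without overlap (log2 fold change 0.18 ± 0.04, adjusted p = 0.00608). EIF4A1 (chromosome 17, 7572706 to 7579005), the main helicase gene, had 564, 572 and 548 CPM in ruxolitinib replicates 1 to 3 and 526, 499 and 518 CPM in control replicates 1 to 3. Its groups did not overlap, at a log2 fold change of 0.13 ± 0.04 and an adjusted p of 0.0424, and 12 of 20 alternative settings ended this call, among them the batch block (0.165) and the removal of any library except ruxolitinib replicate 3 (adjusted p of 0.0758 to 0.147). EIF4A2 (chromosome 3, 186783205 to 186789900), the second helicase paralogue, had 367, 339.9 and 366 CPM with ruxolitinib, against 388, 380.2 and 373 CPM in control, lower in all ruxolitinib libraries but with an adjusted p of 0.173 (log2 fold change -0.09 ± 0.05). EIF4E (chromosome 4, 98871684 to 98930637), which binds the cap, had 175, 186 and 162 CPM in ruxolitinib replicates 1 to 3 and 200.1, 192 and 197 CPM in control replicates 1 to 3. It was lower in all 3 ruxolitinib libraries (log2 fold change -0.17 ± 0.05, adjusted p = 0.0296), and 10 of 20 alternative settings ended the call, among them the batch block (0.0915), DESeq2 (0.063), median-ratio scaling (0.0611) and the removal of ruxolitinib replicate 1 (0.102), ruxolitinib replicate 3 (0.102), control replicate 1 (0.142) or control replicate 3 (0.132). EIF4E2, a cap-binding homologue that does not bind eIF4G well, averaged 177 ± 10.4 CPM with ruxolitinib and 156 ± 0.930 CPM in control and rose by 0.18 ± 0.05 on the log2 scale. EIF4G1 (chromosome 3, 184314495 to 184335358), the main scaffold, had 242, 212 and 248 CPM with ruxolitinib, against 213, 249 and 244 CPM in control. The groups overlapped over nearly their whole range (log2 fold change -0.01 ± 0.07, adjusted p = 0.94). EIF4G3 (chromosome 1, 20806292 to 21176888), its paralogue, had 176, 175 and 175 CPM with ruxolitinib, against 156, 159 and 156 CPM in control, with little spread in either group (log2 fold change 0.16 ± 0.04, adjusted p = 0.0122). EIF4G2, a scaffold that lacks the eIF4E site, averaged 1292 ± 68.0 CPM with ruxolitinib and 1212 ± 57.3 CPM in control (log2 fold change 0.09 ± 0.05). EIF4EBP1 (chromosome 8, 38030341 to 38060365), the mTORC1-controlled repressor of eIF4E, had 23.0, 21.2 and 22.2 CPM with ruxolitinib, against 19.4, 20.4 and 16.8 CPM in control, without overlap, at a log2 fold change of 0.23 ± 0.09 and an adjusted p of 0.0651. It passed without control replicate 2 (adjusted p = 0.025) and with median-ratio or upper-quartile scaling (0.0438 and 0.0374). The remaining genes had log2 fold changes of 0.08 ± 0.05 for EIF4EBP2, -0.09 ± 0.14 for EIF4EBP3, -0.01 ± 0.05 for EIF4A3, a helicase of the exon junction complex, -0.18 ± 0.07 for EIF4ENIF1, which carries eIF4E into the nucleus, and -0.23 ± 0.23 for EIF4E3. With the batch as a block EIF4B alone of the 15 passed, and the adjusted p was 0.0534 for EIF4H, 0.0691 for EIF4E2 and 0.0797 for EIF4G3. Without ruxolitinib replicate 1 it was 0.0737 for EIF4E2 and 0.0615 for EIF4G3, and without control replicate 1 it was 0.0651 and 0.0641. The exons of EIF4A1 share 41.1% of their bases with AC016876.2 and 29.8% with the readthrough gene SENP3-EIF4A1, so their reads may have been split. Those of EIF4EBP3 share 73.4% with the readthrough gene ANKHD1-EIF4EBP3. That gene held 31.0 CPM against 4.36 CPM for EIF4EBP3, so the value of EIF4EBP3 is uncertain.

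Of the 5 genes for subunit joining, eIF6 and eIF5A, 2 rose, 0 fell and 3 did not pass, with a median log2 fold change of 0.20. EIF6 (chromosome 20, 35278911 to 35284985), which keeps the large subunit from joining until it is released, had 103, 108 and 103 CPM in ruxolitinib replicates 1 to 3 and 88.6, 81.7 and 84.4 CPM in control replicates 1 to 3. The groups did not overlap (log2 fold change 0.30 ± 0.05, adjusted p = 7.21e-04). EIF5A (chromosome 17, 7306999 to 7312463), the hypusine-bearing factor that helps the ribosome through stretches such as polyproline, had 115, 118 and 107 CPM with ruxolitinib, against 99.0, 97.1 and 99.4 CPM in control, also without overlap (log2 fold change 0.20 ± 0.05, adjusted p = 0.0101). Its adjusted p was 0.0523 with the batch as a block, 0.0583 without ruxolitinib replicate 1 and 0.175 without the batch 1 libraries. EIF5A2 (chromosome 3, 170888415 to 170908693), its paralogue, had 25.2, 26.4 and 21.3 CPM with ruxolitinib, against 26.4, 27.1 and 27.8 CPM in control, with touching ranges and a log2 fold change of -0.16 ± 0.08 (adjusted p = 0.177). EIF5AL1 is a near-identical copy of EIF5A with a log2 fold change of 0.48 ± 0.31, and the sum of both was 114.9 ± 5.91 CPM with ruxolitinib and 99.7 ± 1.63 CPM in control (SD, n = 3 each). EIF5B, the GTPase that joins the subunits, averaged 193 ± 6.75 CPM with ruxolitinib and 190.5 ± 5.95 CPM in control (log2 fold change 0.02 ± 0.05, adjusted p = 0.818).

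Per kilobase of annotated exon, EEF1A1 ranked first of the 59 genes, followed by TPT1, EEF1G, EIF1, EEF2 and PABPC1. All of these but EIF1 are documented TOP mRNAs. The mean of EEF1A1 over all 6 libraries was 1222 CPM per kilobase of exon. TPT1 had 471, EEF1G 212, EIF1 167, EEF2 165 and PABPC1 163, against 41.2 for EIF4B and 13.2 for EIF4E. EIF4G2 at 145, EIF2S2 at 134 and EIF4H at 118, which are not documented TOP mRNAs, came after PABPC1. The length merges all annotated exons of a gene, 7269 bases for TPT1 and 5948 for EEF1A1. It can exceed that of the mRNA in these cells, so the order depends on it. The 59 genes together took 2.45, 2.56 and 2.32% of all counts in ruxolitinib replicates 1 to 3 and 1.97, 1.92 and 2.03% in control replicates 1 to 3. EEF1A1 alone took 0.838, 0.902 and 0.781% with ruxolitinib, against 0.614, 0.586 and 0.624% in control. The ruxolitinib libraries were higher in both shares, by 0.474 percentage points for all 59 genes and by 0.241 without EEF1A1. The 47 genes that are not documented as TOP mRNAs took 0.848, 0.859 and 0.815% with ruxolitinib and 0.781, 0.776 and 0.810% in control, an order that also holds but with ranges close to each other. The shares are relative to each library's total and do not measure RNA per cell.

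The median log2 fold change was larger among members documented as TOP mRNAs than among the others. Of these 12 genes 9 rose, 0 fell and 3 did not pass (EEF1A2, EEF1D and EIF3F), with a median log2 fold change of 0.36, and 8 of the 9 rose with the batch as a block. Of the other 47 genes 16 rose, 2 fell and 29 did not pass, with a median of 0.10, and with the block 8 rose and 1 fell. Without ruxolitinib replicate 1, 9 of the 47 rose and 1 fell, and without control replicate 1, 10 rose and 0 fell. Of all 14397 genes tested without ruxolitinib replicate 1, 1321 rose and 1620 fell. Of all 14400 tested without control replicate 1, 1479 rose and 1715 fell. By the run of C and T at the annotated start, shown above for EEF1A1 and others, 8 of 13 genes with the run rose, 1 fell and 4 did not pass (median 0.28), against 10, 1 and 24 of 35 without it (median 0.09). With the batch as a block 7 of the 13 rose and 1 fell, against 5 and 0 of the 35, and without ruxolitinib replicate 1 it was 7 and 1 of the 13, against 6 and 0 of the 35. These counts leave out 11 members whose starts were not used here: EIF3L, EIF3G, EIF3E, EIF3A, EIF3H, EIF3CL, PABPC1, EIF2S2, EIF4EBP1, EEF1D and EEF1A2. They hold 7 of the 25 members that rose and 5 of the 12 documented TOP mRNAs. EIF2S3, shown above with the run CTCTTTT, was the 1 that fell, and EIF3M, with CTTTTCC, rose. The run and the documented list overlap, and EEF1G, EIF1 and EIF6 rose without the run at their entries, so the run did not mark all genes that rose. Outside the documented list, genes with the run had values on both sides of the median of 0.09 for genes without it. EIF3M, EIF2A and EIF3D rose, at 0.45, 0.28 and 0.16, and EIF2S3 fell, at -0.21. EIF2D, EIF3K and EIF4A2, at 0.08, 0.02 and -0.09, did not pass. The cytosolic ribosomal protein genes, most of which are TOP mRNAs, showed a median of 0.36: of 84 tested genes 8 did not pass, 74 rose and 2 fell, and 67 rose and 0 fell with the block. RPLP0, of the ribosomal stalk, averaged 669 ± 27.3 CPM with ruxolitinib and 466 ± 13.8 CPM in control (log2 fold change 0.52 ± 0.05, adjusted p = 5.44e-06), and RPL5, RPS14 and RPL6 had log2 fold changes of 0.49, 0.48 and 0.47. The genes that fell, named after their values were seen, were RPL12 (-0.19 ± 0.05) and RPL28 (-0.19 ± 0.06). The ribosomal protein genes together took 4.10, 4.31 and 3.93% of counts with ruxolitinib, against 3.38, 3.24 and 3.30% in control. Of 10 other TOP genes 7 rose, 1 fell and 2 did not pass (median 0.24), among them HNRNPA1, a splicing factor (0.58 ± 0.04), FAU (0.33 ± 0.05) and RACK1, a scaffold on the small subunit (0.27 ± 0.04). VIM, which encodes vimentin and was named after its value was seen, was the 1 that fell (-0.15 ± 0.04, adjusted p = 0.0188, or 0.124 with the block, 0.116 without ruxolitinib replicate 1, 0.162 without control replicate 1 and 0.0866 without control replicate 3). The difference between the gene groups was not tested, since the lists were chosen with results of these data known.

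**Figure D3:**
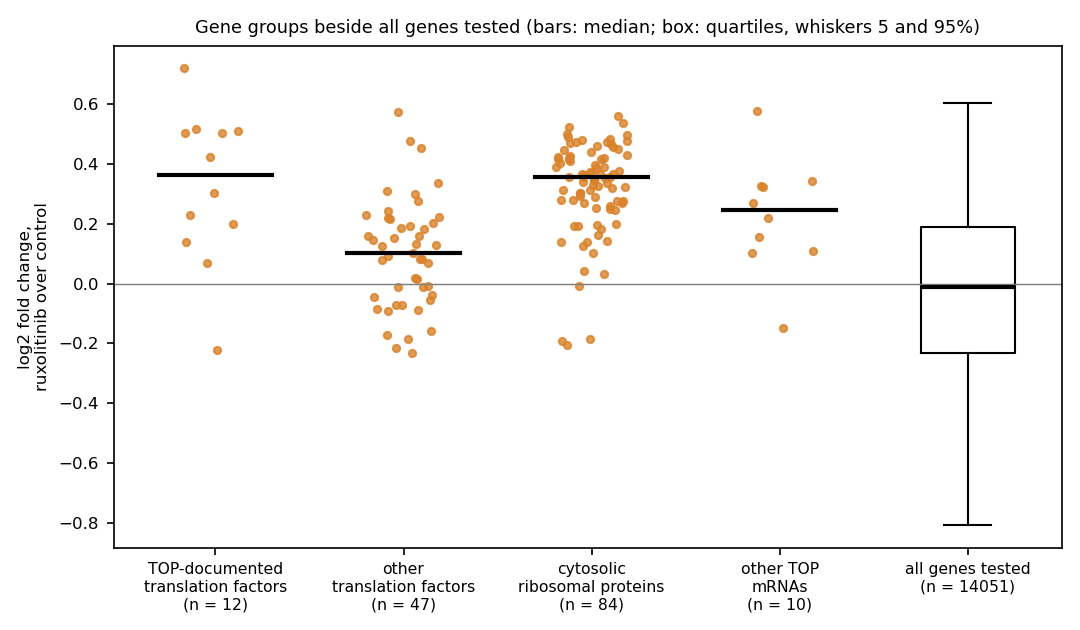
Log2 fold change of ruxolitinib over control (vertical axis) for single genes (points) of 4 groups, with the median as a bar, beside a box of all 14051 genes tested (quartiles, whiskers at 5 and 95%). The medians are 0.36 for the 12 TOP-documented factors, 0.10 for the other 47, 0.36 for 84 ribosomal protein genes, 0.24 for 10 other TOP genes and -0.01 for all genes.

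Lists of genes that control or complete translation are to be read against the 13.6% of all genes that rose and the 16.1% that fell. Of 16 genes of the eIF2 kinases, their phosphatase and the integrated stress response, 3 were higher and 2 lower past the threshold (median log2 fold change 0.08). EIF2AK2, the interferon-induced eIF2 kinase PKR, had 33.3, 34.0 and 34.0 CPM in ruxolitinib replicates 1 to 3 and 316, 295 and 321 CPM in control replicates 1 to 3. This was the largest change among the translation genes listed here, with log2 fold change -3.20 ± 0.05, adjusted p = 5.61e-13. EIF2AK3, the kinase PERK of the endoplasmic reticulum, rose (25.8 ± 0.542 CPM with ruxolitinib and 16.2 ± 1.05 CPM in control, 0.67 ± 0.08), as did PPP1R15A, which directs phosphatase to eIF2 (0.34 ± 0.07), and the phosphatase subunit gene PPP1CA (0.15 ± 0.05, or adjusted p = 0.102 with the block). EIF2AK4, the amino acid-sensing kinase GCN2, named after its value was seen, fell by 0.24 on the log2 scale (adjusted p = 0.0275, or 0.0765 with the block). Of 18 tested genes of mTORC1, the S6 kinases, MNK and eEF2 kinase, 3 rose, 3 fell and 12 did not pass (median 0.08). DDIT4, an inhibitor of mTORC1, averaged 229.8 ± 4.37 CPM with ruxolitinib and 164 ± 4.52 CPM in control (log2 fold change 0.48 ± 0.04, adjusted p = 6.37e-06), and RPS6KB1, which encodes S6 kinase, rose by 0.36 ± 0.06. MKNK1, a kinase of eIF4E, and LARP1, which binds TOP mRNAs, had log2 fold changes of -0.38 ± 0.07 and -0.29 ± 0.06 and both passed the test. RPS6KB2 (0.41 ± 0.12) and RPS6KA1 (-0.15 ± 0.04), named after their values were seen, passed as well, and RPS6KA1 had adjusted p = 0.104 with the block. Without control replicate 2, 7 of these 18 genes passed as higher and 3 as lower, with a median of 0.18. In that fit 2094 of all 14282 genes tested rose and 2172 fell. Of 8 termination and recycling genes 3 rose and 0 fell (median 0.05): HBS1L, a ribosome rescue factor (0.48 ± 0.06), GSPT1, the release factor eRF3 (0.18 ± 0.05), and ETF1, the release factor eRF1 (0.20 ± 0.06). With the block HBS1L alone of these passed. Of 16 genes for enzymes that modify eEF1A, eEF2, eIF5A or eRF1, 1 rose and 2 fell (median 0.01): EEF2KMT, a lysine methyltransferase of eEF2, averaged 2.74 ± 0.283 CPM with ruxolitinib and 5.20 ± 0.314 CPM in control (log2 fold change -0.93 ± 0.16, adjusted p = 7.66e-04), and DNAJC24 (0.43 ± 0.14), needed for the diphthamide of eEF2, and METTL13 (-0.18 ± 0.06), a methyltransferase of eEF1A, had adjusted p = 0.0408 and 0.0498. With the block EEF2KMT alone of these passed. Of 19 tested poly(A)-binding and cap-binding partner genes, PABPC1 included, 3 rose, 1 fell and 15 did not pass (median 0.04), with GIGYF2, a partner of EIF4E2, at -0.21 ± 0.05 and TOB1, a deadenylation adaptor, at 0.18 ± 0.05 (adjusted p = 0.0989 with the block). Without control replicate 2, 5 of these 19 genes passed as higher and 1 as lower. Leaving out 1 library ended some of these calls, at adjusted p of 0.0511 to 0.21. The calls of METTL13, RPS6KA1, ETF1, EIF2AK4, TOB1, DNAJC24 and PPP1CA were lost without ruxolitinib replicate 1. The calls of METTL13, ETF1 and TOB1 were lost without ruxolitinib replicate 2. The calls of METTL13, EIF2AK4, DNAJC24, PPP1CA and RPS6KB2 were lost without ruxolitinib replicate 3. The calls of METTL13, GSPT1, RPS6KA1, ETF1, EIF2AK4, DNAJC24, PPP1CA and RPS6KB2 were lost without control replicate 1. The calls of ETF1 and TOB1 were lost without control replicate 2. The calls of METTL13, RPS6KA1, EIF2AK4, TOB1, DNAJC24, PPP1CA, RPS6KB2 and GIGYF2 were lost without control replicate 3.

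Ratios of paralogues within a library do not depend on how libraries are scaled. A count ratio of paralogues was set for 8 pairs and tested by an exact two-sided permutation test on the log2 ratio, where 3 against 3 cannot give less than p = 0.1, so no pair could pass 0.05. The ratio of EIF4E to EIF4E2 was 0.986, 0.994 and 0.976 with ruxolitinib and 1.29, 1.23 and 1.26 in control, a log2 difference of -0.36. In the ruxolitinib libraries both cap-binding genes had nearly equal counts, and in control EIF4E had more counts in every library. Counts are not scaled by annotated exon length, 14067 bases for EIF4E and 7177 for EIF4E2. The ratio therefore does not show which gene was the more abundant. The ratio of EIF4A1 to EIF4A2 was 1.54, 1.68 and 1.498 with ruxolitinib and 1.36, 1.31 and 1.39 in control, higher in all ruxolitinib libraries (log2 difference 0.22). EIF5A over EIF5A2 gave 4.59, 4.45 and 5.005 with ruxolitinib and 3.75, 3.58 and 3.57 in control (log2 difference 0.36). PABPC1 over PABPC4 gave 1.31, 1.41 and 1.24 with ruxolitinib and 1.76, 1.57 and 1.86 in control (log2 difference -0.39), lower with ruxolitinib although both genes rose. EIF1 over EIF1B and EEF1A1 over EEF1A2 had log2 differences of 0.19 and 0.75, the second resting on a gene at about 1.00 CPM. For these 6 pairs the groups did not overlap (p = 0.1 each by the exact test, 0.133 adjusted over the 8 ratios). The groups overlapped for EIF4G1 over EIF4G3 (log2 difference -0.17, exact p = 0.3) and EIF4EBP1 over EIF4EBP2 (0.15, exact p = 0.2). Adding the pseudogene rows of each copy moved none of the 8 log2 differences by as much as the spread between replicates.

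**Figure D4:**
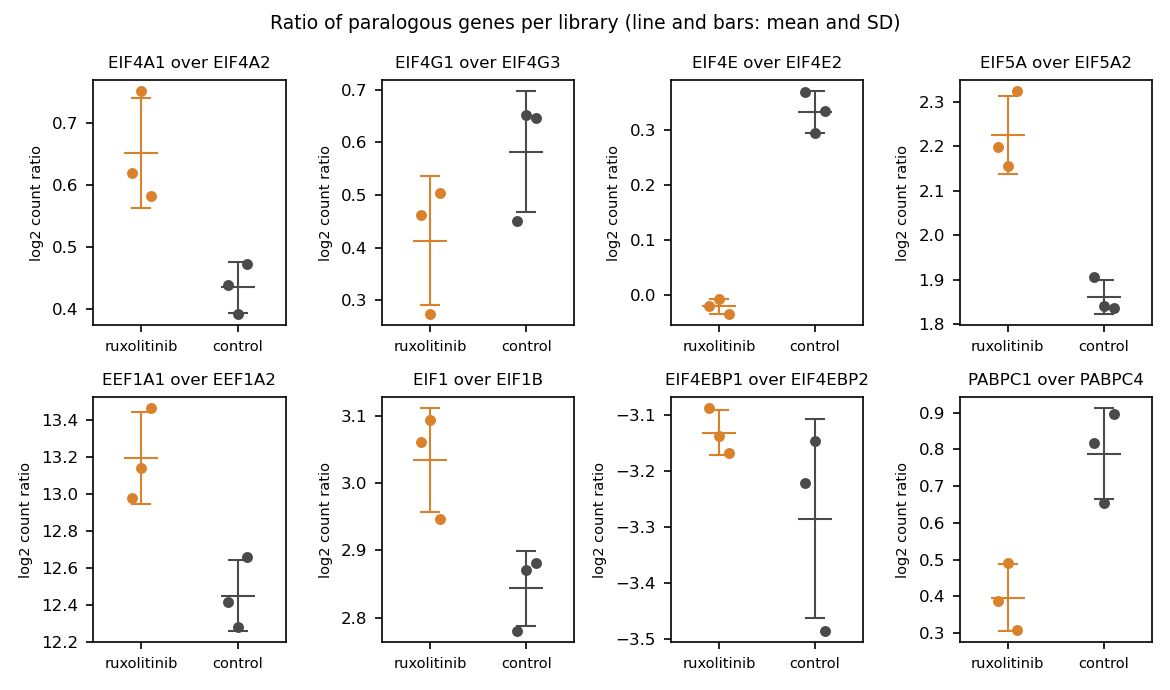
Log2 ratio of counts of paralogous genes (vertical axes, scales differ) in the 3 ruxolitinib and 3 control libraries for 8 pairs; points are libraries, bars are mean and SD. The groups do not overlap except for EIF4G1 over EIF4G3 and EIF4EBP1 over EIF4EBP2; EIF4E over EIF4E2 lies near 0 with ruxolitinib.

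Within a group, the 25 genes that rose tended to be high or low in the same libraries. Ruxolitinib replicate 2 was the highest of its group for 18 of the 25 and ruxolitinib replicate 3 the lowest for 21. Control replicate 2 was the lowest of its group for 19 and control replicate 3 the highest for 14. The order was not counted over the other members or over all genes. Whether it is particular to these 25 genes was not tested. Without both libraries of batch 2, 23 members rose and 6 fell, where 35.6% of all genes passed, 18.1% higher and 17.6% lower. Without it EIF2S1 passed with a log2 fold change of -0.13 (adjusted p = 0.0483), EIF1AX with -0.16 (0.013), EIF5A2 with -0.22 (0.0367) and EIF3CL with -0.25 (0.0114), in addition to EIF2S3 and EIF4E. The value of EIF3CL cannot be told apart from a shift of reads between it and its copy EIF3C. Control replicate 2 also had the largest total and the most genes detected, 24798 against 21126 to 22675 in the other libraries; the part of depth in this order was not tested. Of the 27 genes called, 12 were called in the same direction under every alternative setting in which they were tested: EIF4B, EIF3L, TPT1, EEF1G, EEF2, EEF1A1, EIF3M, EEF1B2, EIF1, EIF3G, EIF3E and EIF6, all of them higher with ruxolitinib.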

How the data were processed

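The authors deposited 1 table of whole-number read counts per gene for the 6 libraries, with a gene name in each row. The build was hg38, per the submitters' processing notes. Aligner, counting program, annotation and strandedness are not stated in the sources at hand. Overlapping genes on opposite strands therefore cannot be separated. Gene positions came from GENCODE 29, in which 58296 of 61517 identifiers were found, and start sequences from RefSeq on GRCh38.p14.

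The quasi-likelihood test of edgeR 4.0.16 (robust, under R 4.3.3) was run on the counts of all genes, with TMM factors, filterByExpr (minimum count 10, minimum total 15), Benjamini-Hochberg adjustment over 14051 genes and a threshold of 0.05. CPM are over TMM-scaled totals, except for the membership minimum of 1 CPM, and the SE comes from the coefficient and its F statistic. Total counts per library ran from 17757595 to 24533979, which sets the precision of low genes. Named genes are the 3 with the smallest adjusted p in each role group, a fixed group of main factors, and up to 4 per companion list; others named are said to be so, and a gene that met this rule is not reported here.

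The members, roles and lists were chosen with earlier results of these data known. Batch numbers in the labels pair each ruxolitinib library with a control library, on that ground alone: departures from the group mean correlated over genes, within a batch, at -0.02, -0.19 and -0.10. Nothing says that libraries of a group were separate cultures, so the p-values reflect the spread among these libraries, possibly technical. No library duplicated another (chi-square per degree of freedom 3.38 to 21.1 within groups). Alternatives were other scalings, filters and depth, DESeq2 1.42.0, limma-voom (limma 3.58.1), the batch block, and leaving out libraries or batches.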

Additional observations from a re-analysis of the deposited data

How the results depend on the processing

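More of the 59 genes rose than fell under each of the 20 alternatives, with 12 to 30 rising and 0 to 6 falling, and no member called under either setting changed sign. With the batch as replicate block, 16 members rose and 1 fell, and 5 companion genes fell against 11 in the unblocked fit. Without the batch 1 libraries 1983 of all genes passed, 840 higher and 1143 lower, and 12 members rose, 0 fell and 4 companion genes fell. Without batch 2, 6 members fell, and without batch 3, 0 members and 5 companion genes fell. Median-ratio scaling, upper-quartile scaling and DESeq2 each left 1 member that fell, and upper-quartile scaling 6 companion genes. Leaving out 1 library gave 18 to 27 members higher, 0 to 3 lower, and 4 to 12 companion genes lower. In these fits 1321 to 2094 of all 14282 to 14442 genes tested were higher and 1620 to 2172 lower. Without EEF1A1 the members' share of counts differed by 0.241 percentage points. Over all members and alternatives, 67 calls were lost and 19 gained. The cause of these shifts was not tested. Removing the 10 most abundant genes leaves EEF1A1 untested. Low genes such as EEF1A2 and EIF4E3 had SE of 0.28 and 0.23, so moderate changes were not detectable in them.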
